A study of Mus musculus with 6 samples.

Results

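Receptors for the constant part of antibodies, with the chain and the kinase that carry their signal, were followed in mouse alveolar macrophages that overexpressed the transcription factor C/EBPβ. The genes were taken by symbol: the activating Fcγ receptors Fcgr1, Fcgr3 and Fcgr4, the inhibitory receptor Fcgr2b, the signalling chain Fcer1g and the kinase Syk. All 6 were among the 10539 genes listed, and all 6 passed the filter of a mean of at least 1 FPKM (fragments per kilobase of transcript, scaled to the mapped fragments of the library) that left 9617 genes for testing. RNA was sequenced from 3 libraries of C/EBPβ-overexpressing macrophages after an adenovirus carrying A20 (group CEBPb-A) and from 3 libraries of such macrophages without that label (group CEBPb). Every library thus shares the strain C57BL/6, the lung origin and the C/EBPβ overexpression. The labels name an A20 adenovirus for CEBPb-A. They do not say whether CEBPb cells were given a virus, the way C/EBPβ was delivered, or whether replicates were separate animals or cultures. Every p-value is thus set against library-to-library variation alone, and that variation could be technical. CEBPb-A and CEBPb stand throughout for the libraries so labelled.

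Activating Fcγ receptors bind the Fc part of IgG and have no signalling motif of their own, so they depend on the γ chain encoded by Fcer1g. Src family kinases phosphorylate the paired tyrosines of its immunoreceptor tyrosine-based activation motif (ITAM), Syk docks there through its SH2 domains, and phagocytosis and cytokine release follow. The inhibitory receptor Fcgr2b carries a single-tyrosine inhibition motif (ITIM) that recruits the inositol phosphatase SHIP1, and the balance of the receptor kinds sets how strongly a macrophage answers immune complexes. A20, the ubiquitin-editing enzyme encoded by Tnfaip3, is known as a brake on NF-κB signalling.

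The tyrosine motifs through which Fcer1g and Fcgr2b are known to signal are shown as coding sequence, with the tyrosine codons in capitals (GENCODE M21 transcripts, GRCm38, minus strand). The stretch of Fcer1g spans exons 4 and 5 of transcript Fcer1g-201 within chr1:171229883-171230078, and that of Fcgr2b lies in exon 8 of Fcgr2b-201 at chr1:170961065-170961094.
Fcer1g, activation motif: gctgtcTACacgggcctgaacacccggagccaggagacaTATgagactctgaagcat
Fcgr2b, inhibition motif: aatacgatcaccTACtcacttctcaagcat
The letter pattern of the inhibition motif alone does not tell the genes apart, since it also occurred in frame 3 times in Fcgr1 and 1 time each in Fcgr4 and Fcer1g, and the activation pattern was found in transcript Fcer1g-201 and not in Fcer1g-203. Elsewhere Fcgr2b and Fcgr3 share stretches of identical sequence, shown because reads from them fit both genes. The longest identical run between Fcgr2b and Fcgr3 transcripts had 129 bases, across exons 3 and 4 of both (coding bases 278 to 406 of Fcgr2b-201 and 263 to 391 of Fcgr3-201).
Fcgr2b and Fcgr3, shared run: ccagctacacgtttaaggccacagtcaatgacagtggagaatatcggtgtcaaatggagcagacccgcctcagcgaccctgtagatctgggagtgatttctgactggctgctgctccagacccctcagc
Of the windows of 50 bases in the 4 protein-coding Fcgr2b transcripts, 4.75% to 16% also occurred in Fcgr3, and of those in the 3 Fcgr3 transcripts, 0% to 13% occurred in Fcgr2b. With windows of 100 bases the highest shares were 4.47% and 3.59%. The longest Fcgr2b transcript also shared windows of 50 bases with genes other than Fcgr3, 11.4% of its windows in all. Fcgr1, Fcgr4, Fcer1g and Syk shared no window of either size with a transcript of another gene. Fcgr2b further overlaps the antisense gene Gm38204 of GENCODE M21, and whether strand was used in counting is not stated. How the authors divided reads between similar genes was not stated either, so the levels of Fcgr2b and Fcgr3 are less certain than those of the other 4 genes.

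Depth is unknown because the table holds FPKM, with no read counts or mapped totals. Library CEBPb-A replicate 3 stood apart from the rest along the leading principal component (25.7, against −11.7 to −0.0954 in the other 5, 44.3% of the variance). Values without it are given beside the Fc receptor genes and beside some, but not all, of the pathway genes that it moves by over 1.5 times. Tnfaip3, the gene of A20, stood at 7.94, 15.5 and 7.32 FPKM in libraries labelled CEBPb-A and at 8.76, 17.7 and 19.2 FPKM in those labelled CEBPb (log2 fold change −0.53, −0.86 to −0.34 with a library left out, limma adjusted p = 0.606), so its listed level was not higher in the libraries labelled with the A20 adenovirus. All 21 alveolar macrophage markers looked for, of which Fcgr1 is one, were listed, with Siglecf at 102 to 106 FPKM in CEBPb-A and 101 to 105 FPKM in CEBPb. None passed, but the groups did not overlap for 8 of the 21 (38.1%), against 16.8% of all genes tested (7.89% higher and 8.86% lower in CEBPb-A). This count takes no account of transcript length, described further on. Fabp1, Car4, Ear1, Ear2, Pparg and Cd68 were higher in every CEBPb-A library, and Adgre1 and Itgax lower.

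The 6 genes covered a wide range of abundance, on the FPKM scale, which is per length. Fcer1g was the most abundant, at the 99.5th percentile of listed genes by mean level, followed by Fcgr3 at the 98.2nd and Fcgr4 at the 95.5th. Syk stood at the 94.8th percentile, Fcgr1 at the 68.6th and Fcgr2b, the inhibitory receptor, at the 45.7th. Every pair of neighbours in this order was separated in all libraries of both groups except Fcgr4 and Syk. Those were separated in CEBPb-A, where Fcgr4 lay above Syk, and overlapped in CEBPb. Fcer1g had 1.76 to 2.07 times the summed FPKM of the 3 activating receptors in CEBPb-A and 1.93 to 2.32 times in CEBPb. Among the activating receptors Fcgr3 made up 62.8% to 67.4% of that sum in CEBPb-A and 63.2% to 69.6% in CEBPb.

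None of the 6 genes passed the threshold (limma adjusted p under 0.05 over all 9617 genes tested), as against 5 genes, 0.052% of those tested, in the whole table (0.0208% higher and 0.0312% lower in CEBPb-A). At an unadjusted p under 0.05 stood 2 of the 6, Fcgr3 and Fcgr4, both higher in CEBPb-A, where 8.18% of all genes did (3.76% higher and 4.42% lower). The groups did not overlap for 2 of the 6, Fcgr4 and Syk, where 16.8% of all genes tested were so separated (7.89% higher and 8.86% lower in CEBPb-A).

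Fcgr4, an activating receptor that binds IgG2a and IgG2b with intermediate affinity, had the highest fold change of the 6. It stood at 89.4, 93.8 and 93.0 FPKM in CEBPb-A replicates 1, 2 and 3, against 70.3, 79.6 and 69.0 FPKM in CEBPb. Every CEBPb-A library lay above every CEBPb library, as was the case for 6 alveolar macrophage markers, for S100a8 and for the T cell marker Cd2. The part of cell make-up in the level of Fcgr4 was not tested. The mean was 92.0 ± 2.34 FPKM in CEBPb-A and 73.0 ± 5.80 FPKM in CEBPb (SD, n = 3 each), a ratio of 1.26. The log2 fold change was 0.33 (SE 0.0783, 95% interval 0.15 to 0.52), the 45th smallest p of the table, and did not pass after adjustment over all genes (limma unadjusted p = 0.00305, adjusted p = 0.588). Without CEBPb-A replicate 3 it was 0.33 (adjusted p = 0.671).

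Fcgr3, the low-affinity activating receptor and the one through which mouse IgG1 acts, had the second highest fold change. Its level was 206, 178 and 218 FPKM in CEBPb-A, against 188, 159 and 159.5 FPKM in CEBPb. The groups overlapped, since CEBPb-A replicate 2 lay below CEBPb replicate 1. The mean was 201 ± 20.9 FPKM in CEBPb-A and 169 ± 16.6 FPKM in CEBPb (SD, n = 3 each), and the log2 fold change of 0.25 (SE 0.106, 95% interval 0.0018 to 0.497) did not pass (limma adjusted p = 0.588). Without CEBPb-A replicate 3 it was 0.19.

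Fcgr1, the high-affinity receptor, which can hold monomeric IgG2a, did not differ beyond the spread of its libraries. It stood at 14.2, 11.4 and 12.7 FPKM in CEBPb-A and at 11.9, 12.6 and 12.7 FPKM in CEBPb, so the CEBPb values lay inside the CEBPb-A range. The log2 fold change was 0.034 (95% interval −0.19 to 0.26, limma adjusted p = 0.909). Its sign turned without CEBPb-A replicate 1 (−0.042), and it was 0.036 without CEBPb-A replicate 3.

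Fcgr2b, the inhibitory receptor, was the least abundant of the 6 genes and overlapped between groups. Its level was 6.29, 5.096 and 5.11 FPKM in CEBPb-A, against 6.11, 5.14 and 6.31 FPKM in CEBPb. Both groups held values near 5 and near 6 FPKM. The log2 fold change was −0.077 (SE 0.114, 95% interval −0.34 to 0.19, limma adjusted p = 0.814). Without CEBPb-A replicate 3 it was −0.036. The interval of Fcgr2b overlaps those of Fcgr3 (0.0018 to 0.497) and Fcgr4 (0.15 to 0.52), and a difference between the receptors was not tested.

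**Figure D1:**
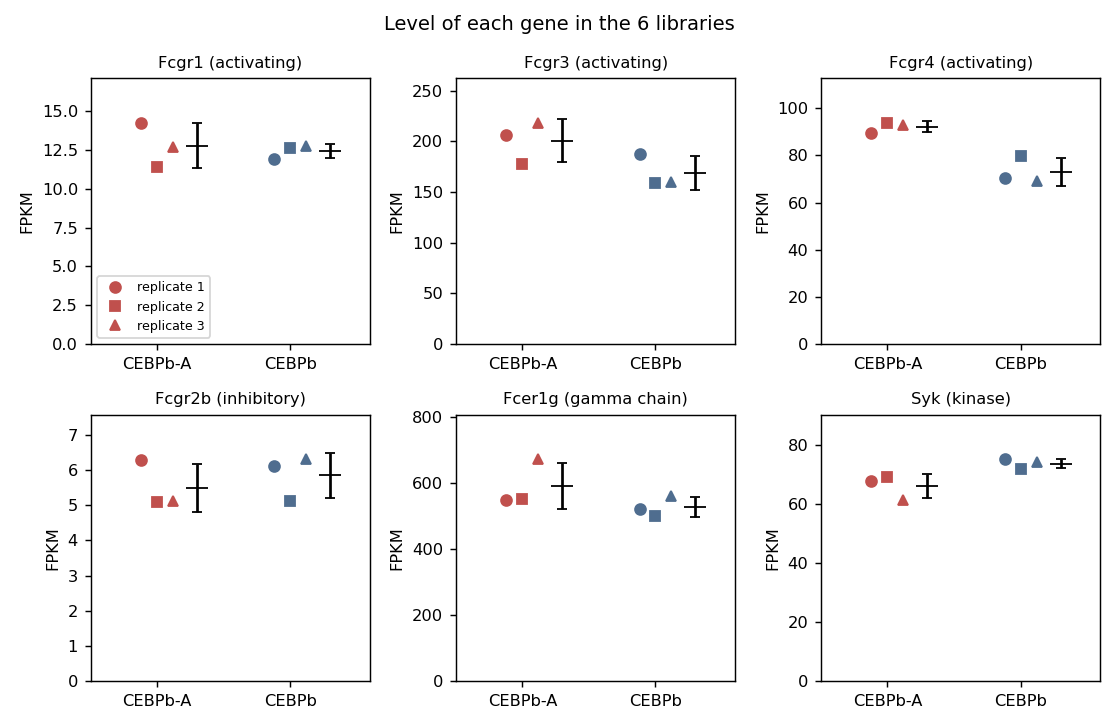
FPKM of the 6 genes in each library, CEBPb-A left in red and CEBPb right in blue, with replicate numbers as marker shapes and the mean ± SD in black (n = 3 per group). Fcgr4 lay higher in all CEBPb-A libraries (89.4 to 93.8 against 69.0 to 79.6) and Syk lower (61.5 to 69.2 against 71.9 to 75.1), while the groups overlapped for the other 4 genes.

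Fcer1g, the chain that every activating Fcγ receptor of the mouse uses, had 547, 552 and 671 FPKM in CEBPb-A and 520.4, 499.5 and 561 FPKM in CEBPb. Replicate 3 was the highest of its group in both, and CEBPb replicate 3 lay above the 2 lower CEBPb-A libraries. The log2 fold change of 0.16 (SE 0.104, 95% interval −0.085 to 0.399) did not pass (limma adjusted p = 0.61) and was 0.062 without CEBPb-A replicate 3.

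Syk, the tyrosine kinase that binds the phosphorylated chain, had the lower mean in CEBPb-A. It stood at 67.9, 69.2 and 61.5 FPKM there, against 75.1, 71.9 and 74.2 FPKM in CEBPb. All CEBPb-A libraries lay below all CEBPb libraries, by a narrow gap between 69.2 and 71.9 FPKM. The mean was 66.2 ± 4.09 FPKM in CEBPb-A and 73.7 ± 1.66 FPKM in CEBPb (SD, n = 3 each), and the log2 fold change of −0.16 (SE 0.073, 95% interval −0.32 to 0.014) did not pass (limma adjusted p = 0.588). Without CEBPb-A replicate 3 it was −0.104. Per unit of its partner chain, Syk stood at 0.124, 0.125 and 0.0918 of the Fcer1g level in CEBPb-A and at 0.144, 0.144 and 0.132 in CEBPb, with no overlap. This ratio sets a long transcript over a short one, and with the trend of fold change over transcript length removed, described further on, the log2 fold changes were −0.029 for Syk and 0.091 for Fcer1g.

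Activating and inhibitory receptors were also set against each other inside each library, where a scaling factor between libraries cancels. The summed FPKM of Fcgr1, Fcgr3 and Fcgr4 was 310.001, 283 and 324 in CEBPb-A, against 269.9, 251 and 241 in CEBPb. Divided by Fcgr2b it gave 49.3, 55.5 and 63.4 in CEBPb-A, against 44.2, 48.8 and 38.2 in CEBPb. These ratios did not overlap, but CEBPb-A replicate 1 (49.3) and CEBPb replicate 2 (48.8) almost met. Taken singly, Fcgr3 to Fcgr2b was separated (32.8 to 42.7 in CEBPb-A, 25.3 to 30.9 in CEBPb), although the levels of Fcgr3 and of Fcgr2b each overlapped. Fcgr4 to Fcgr2b overlapped (14.2 to 18.4 in CEBPb-A, 10.9 to 15.5 in CEBPb), as did Fcgr1 to Fcgr2b (2.23 to 2.48 in CEBPb-A, 1.94 to 2.45 in CEBPb). The CEBPb-A mean of the summed ratio was 1.28 times the CEBPb mean, and 1.197 times without CEBPb-A replicate 3. No p is given for these ratios, since they combine chosen genes, and the reads shared by Fcgr2b and Fcgr3 enter both sides of the division. How often ratios of other gene pairs separate the groups was not counted, so the separation has no background to be read against.

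**Figure D2:**
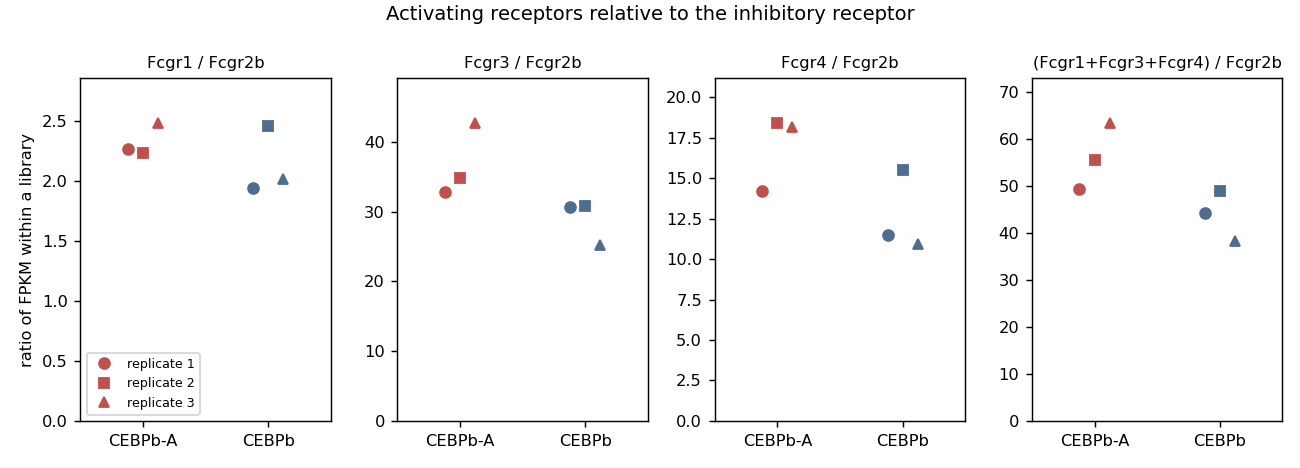
Ratio of the FPKM of each activating receptor, and of their sum, to the FPKM of Fcgr2b within each library (CEBPb-A left in red, CEBPb right in blue, markers for replicates 1 to 3). The ratios of Fcgr3 and of the sum were higher in every CEBPb-A library, and those of Fcgr1 and Fcgr4 overlapped.

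The fold changes of these genes were read beside transcript length, because across all genes tested longer transcripts had lower fold changes (Spearman rho −0.428 across genes, which are not independent replicates, and −0.259 without CEBPb-A replicate 3). Fcer1g, Fcgr4 and Fcgr3 have short transcripts (medians of 678.5, 1256 and 1324 bases), Fcgr2b and Fcgr1 intermediate ones (1520 and 2589) and Syk a long one (5122). The length decile that holds Syk, decile 10, had a median log2 fold change of −0.16, against −0.16 for Syk itself. In that decile 19% of genes were separated downward, and 51.4% of its genes lay below Syk. The decile that holds Fcgr4 and Fcgr3, decile 3, had a median of 0.072, with 16.5% of its genes separated upward. Of its genes 96.4% lay below Fcgr4 and 90.5% below Fcgr3. With the length trend removed in each library the log2 fold change was 0.28 for Fcgr4 (95% interval 0.11 to 0.46), 0.20 for Fcgr3 (−0.036 to 0.44), 0.091 for Fcer1g, 0.063 for Fcgr1, −0.11 for Fcgr2b and −0.029 for Syk. None passed (limma adjusted p from 0.658 to 0.914). What lies behind the length trend was not tested.

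**Figure D3:**
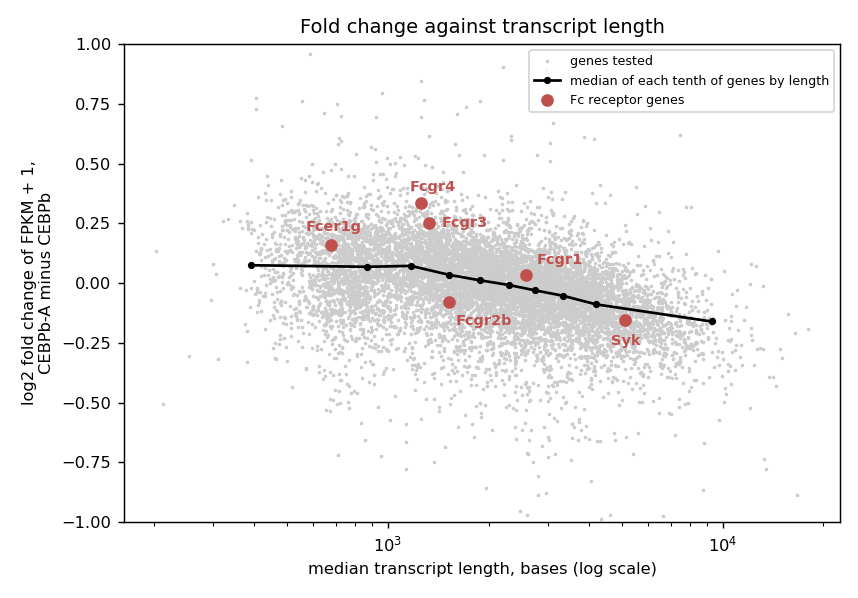
Log2 fold change of FPKM + 1, CEBPb-A minus CEBPb, against the median length of protein-coding transcripts on a log axis, for all genes tested with a length (grey), the median of each length decile (black, placed at the geometric middle of its lengths) and the 6 Fc receptor genes (red), with 18 genes outside the axis. Fcgr4 and Fcgr3 lay above the median of their length class (0.072), Syk at that of its own (−0.16) and Fcgr2b below (−0.077 against 0.035).

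Of the 6 genes 4 lie in one cluster on mouse chromosome 1, within 276 kb from 170958617 to 171234365 (GRCm38). In order these are Fcgr2b (170958617 to 170976547, minus strand), Fcgr4 (171018920 to 171029761, plus strand), Fcgr3 (171051174 to 171064935, minus strand) and Fcer1g (171229572 to 171234365, minus strand). Fcgr1 lies on chromosome 3 (96282909 to 96293969, minus strand) and Syk on chromosome 13 (52583173 to 52648792, plus strand). Point estimates along the cluster differed in sign. Fcgr4, 42.4 kb from the end of Fcgr2b and 21.4 kb from Fcgr3, stood at 0.33 with Fcgr2b at −0.077 on one side and Fcgr3 at 0.25 on the other. The other listed genes in the interval were Sdhc, a subunit of respiratory complex II, with a log2 fold change of 0.074, and Tomm40l, related to the mitochondrial import channel, with 0.088. Neither passed (limma adjusted p = 0.753 for Sdhc and 0.825 for Tomm40l).

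**Figure D4:**
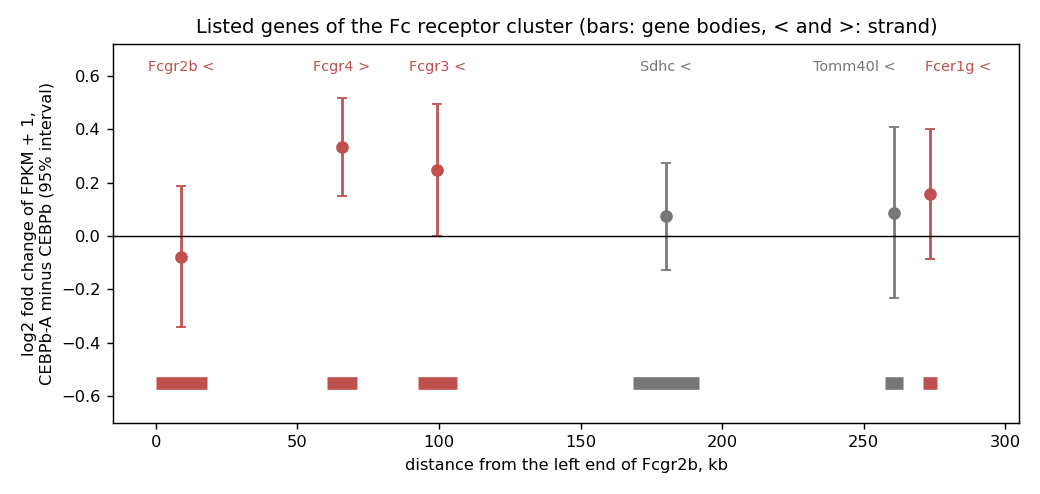
Log2 fold change of FPKM + 1 (CEBPb-A minus CEBPb, limma, 95% interval) of the listed genes of the cluster, placed by distance in kb from the left end of Fcgr2b, with gene bodies as bars and strands as < and >. Among the Fc receptor genes in red, the interval of Fcgr4 (0.15 to 0.52) lay clear of 0, that of Fcgr3 only just (0.0018 to 0.497), and those of Fcgr2b, Fcer1g and the grey neighbours held 0.

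The promoters of the 4 receptor genes are shown because the receptors form the activating and inhibitory arms compared and because C/EBPβ was overexpressed in every library. They are RefSeq sequences of GRCm38.p6, from 250 bases before to 50 after the gene's start, and all 6 genes matched an entry (8 entries in all, of which the first is shown). The RefSeq start can lie inside the bounds that the deposited table gives a gene: it is 5532 bases inside for Fcgr3 (171059403), 476 for Fcgr2b (170976071), 6 for Fcgr4 and 0 for Fcgr1. The motifs searched on both strands were GAGGAAG, a core bound by the macrophage factor PU.1, TTGCNNAA, a C/EBP-type site, and TTCNNNGAA, the spacing of gamma-activated STAT sites. Matches are in capitals.
Fcgr1, chr3:96293920-96294219, minus strand: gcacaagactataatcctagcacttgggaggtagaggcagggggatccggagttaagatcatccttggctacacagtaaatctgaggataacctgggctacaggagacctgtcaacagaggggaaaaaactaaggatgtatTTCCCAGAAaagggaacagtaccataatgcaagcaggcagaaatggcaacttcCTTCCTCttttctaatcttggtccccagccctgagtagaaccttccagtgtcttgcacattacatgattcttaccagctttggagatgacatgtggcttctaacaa
Fcgr3, chr1:171059354-171059653, minus strand: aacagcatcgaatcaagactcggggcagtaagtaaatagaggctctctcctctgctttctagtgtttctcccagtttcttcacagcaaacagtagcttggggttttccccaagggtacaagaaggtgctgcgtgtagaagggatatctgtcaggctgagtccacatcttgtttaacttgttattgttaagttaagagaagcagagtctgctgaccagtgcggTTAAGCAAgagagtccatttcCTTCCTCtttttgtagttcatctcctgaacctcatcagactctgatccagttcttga
Fcgr4, chr1:171018676-171018975, plus strand: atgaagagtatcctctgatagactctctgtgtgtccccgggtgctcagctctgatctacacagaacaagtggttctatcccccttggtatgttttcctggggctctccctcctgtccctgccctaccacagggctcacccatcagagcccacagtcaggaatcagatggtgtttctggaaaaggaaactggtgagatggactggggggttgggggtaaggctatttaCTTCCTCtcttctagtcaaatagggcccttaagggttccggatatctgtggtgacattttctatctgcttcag
Fcgr2b, chr1:170976022-170976321, minus strand: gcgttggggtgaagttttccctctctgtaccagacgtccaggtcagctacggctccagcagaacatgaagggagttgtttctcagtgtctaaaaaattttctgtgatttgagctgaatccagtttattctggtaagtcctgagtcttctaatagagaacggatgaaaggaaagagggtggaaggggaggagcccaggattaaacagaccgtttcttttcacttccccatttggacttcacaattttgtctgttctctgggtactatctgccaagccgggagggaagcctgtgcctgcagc
GAGGAAG matched in all 3 activating receptor promoters, beginning at −56 in Fcgr1, −7 in Fcgr3 and −23 in Fcgr4, each time on the strand opposite to the gene. It did not match in those of Fcgr2b, Fcer1g and Syk. TTGCNNAA matched in Fcgr3 alone among the 6 genes, at −28, and TTCNNNGAA in Fcgr1 alone, at −109. Of 32841 promoters of this length in the same set, 13.6% hold GAGGAAG, 10.8% TTGCNNAA and 8.3% TTCNNNGAA, and the matches did not overlap one another in the sequences shown. A match is a description of these letters and no measurement of binding.

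By their pattern over the 6 libraries (Pearson correlation of log2(FPKM + 1), given as a description), the genes most like Fcgr4 were Tax1bp3 (0.993) and Tspan13 (0.991). Tax1bp3 ranged from 14.1 to 14.5 FPKM in CEBPb-A and from 12.3 to 13.3 FPKM in CEBPb. Both genes had separated groups, but they were picked for likeness to Fcgr4, so this is no further result. The genes named in this paragraph as most like a member were the highest of 9617 tested over only 6 points, and such picking alone can give high coefficients. Of the genes near Fcgr3, Nolc1 stood at 0.986. Nearest to Fcer1g were Ndufa8 and Ndufb7 (0.996 each), subunits of respiratory complex I with short transcripts of 861 and 623 bases. Syk was most like Prnp (0.998) and Plxnd1 (0.996), Fcgr1 like Eif2b3 (0.974) and Tsr2 (0.947), and Fcgr2b like Colgalt1 (0.982) and Rtel1 (0.981). Between the Fc receptor genes themselves the coefficients ran from −0.834 for Fcgr4 with Syk to 0.657 for Fcgr3 with Fcer1g. The points of each coefficient are the same 6 libraries, so shared library effects enter all of them.

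Around the receptors, 9 lists of genes of the same pathway held 137 tested genes. None passed in either direction (limma adjusted p under 0.05), and 2 stood higher and 7 lower in CEBPb-A at an unadjusted p under 0.05, where 3.76% of all genes tested were higher and 4.42% lower. The groups did not overlap for 24 of the 137, 17.5% against 16.8% of all genes tested, with 6 higher and 18 lower in CEBPb-A (7.89% higher and 8.86% lower over all genes tested). The median log2 fold change was −0.028, against −0.013 over all genes tested, and −0.0062 with the length trend removed.

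Other Fc receptors were few. Of 14 genes looked for, 3 were tested: Fcgrt, the neonatal receptor that recycles IgG, Trim21, a cytosolic antibody receptor and ubiquitin ligase, and Fcrlb, an intracellular Fc receptor-like protein. Trim21 stood at 6.03, 5.201 and 5.21 FPKM in CEBPb-A and at 6.69, 6.55 and 6.803 FPKM in CEBPb, separated downward (log2 fold change −0.25, limma adjusted p = 0.588). Fcrlb had 3.78, 2.99 and 4.204 FPKM in CEBPb-A and 2.72, 2.24 and 2.81 FPKM in CEBPb, separated upward (0.37, adjusted p = 0.588). Fcgrt overlapped (0.18, adjusted p = 0.589, and 0.12 without CEBPb replicate 2). Separated were thus 1 gene upward and 1 downward of the 3 (66.7% against 16.8% of all genes tested). Of the receptor-paired adaptors other than Fcer1g, Tyrobp, which serves receptors such as Trem2, had 1384, 1323 and 1694 FPKM in CEBPb-A and 1213, 1066 and 1317 FPKM in CEBPb (log2 fold change 0.29, adjusted p = 0.588). The groups were separated by a gap of only 1317 to 1323 FPKM, and without CEBPb-A replicate 3 the log2 fold change was 0.18. Tyrobp too has a short transcript of 580.5 bases and stood at 0.22 with the length trend removed. In its length decile, decile 1, 14.5% of genes were separated upward. Hcst had a log2 fold change of 0.14, and of −0.015 without CEBPb-A replicate 3. Its groups overlapped, so 1 of the 2 adaptors tested was separated (50% against 16.8% of all genes tested).

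Receptors that pair with Fcer1g or signal to Syk (17 of 26 tested) had a median log2 fold change of 0.0026, and of −0.038 with the length trend removed. Of these receptors 0 were separated upward and 4 downward (23.5%, against 16.8% of all genes tested, 7.89% upward and 8.86% downward). The lowest p among them was that of Clec4e, the glycolipid receptor Mincle, which signals through Fcer1g. It stood at 14.6, 17.1 and 13.4 FPKM in CEBPb-A, against 21.96, 25.5 and 22.4 FPKM in CEBPb. All CEBPb-A libraries lay below all CEBPb libraries (log2 fold change −0.601, SE 0.107, limma unadjusted p = 5.8e-04, adjusted p = 0.356), and with the length trend removed it was −0.63. Of the related C-type lectins, Clec4d stood at 0.11, Clec4n, which is Dectin-2, at 0.14 and Clec5a at 0.0026. Clec4d was 0.014 and Clec4n 0.066 without CEBPb replicate 3. Clec4e and Clec4n use the same chain as Fcgr4 and Fcgr3.

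Among the kinases and effectors of the pathway no gene passed. Of Src family kinases and their regulators 9 were tested, 3 of them separated downward and 0 upward (33.3%, against 8.86% downward and 7.89% upward over all genes tested). Their median was −0.18 and became −0.072 with the length trend removed. Lyn, the kinase that phosphorylates these motifs, stood at 95.6 ± 3.91 FPKM in CEBPb-A and 93.0 ± 0.505 FPKM in CEBPb (SD, n = 3 each). Its log2 fold change was 0.039, and 0.015 to 0.072 with a library left out. Fgr was at −0.18 (−0.085 without CEBPb-A replicate 3) and Fyn at −0.079 (−0.16 to −0.013 with a library left out). Ptprc, the phosphatase CD45 with a transcript of 4611 bases, was at −0.36 (limma adjusted p = 0.588). Of 35 adaptors and effectors downstream of Syk 0 were separated upward and 6 downward (17.1%). Over all genes tested 16.8% were separated, 7.89% upward and 8.86% downward. The median of the 35 was −0.065, and 0.0068 with the length trend removed. Plcg2 stood at −0.068 (−0.11 to −0.034 with a library left out) and the exchange factor Vav1 at 0.039. The kinase Btk stood at −0.096, the adaptor Lcp2 at −0.00041 and the phospholipase Pld2 at −0.201. Of 33 genes of the phagocytic actin machinery 3 were separated upward and 3 downward (18.2% against 16.8% of all genes tested, median −0.017). Rac1, whose replicates 2 were far above the others (99.2 FPKM in CEBPb-A, 90.6 FPKM in CEBPb), stood at 0.087. Rac2 was at 0.14, Cdc42 at 0.054, Was at −0.00067 and Arpc3 at 0.21 (0.13 without CEBPb-A replicate 3).

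Of 15 tested genes that limit the signal 1 was separated upward and 1 downward (13.3% against 16.8% of all genes tested, median −0.035). Inpp5d, the SHIP1 that Fcgr2b recruits, had 23.1, 21.8 and 20.4 FPKM in CEBPb-A and 23.4, 20.2 and 24.2 FPKM in CEBPb, with overlapping groups (log2 fold change −0.048). Ptpn6, the tyrosine phosphatase SHP-1, had 84.1, 84.2 and 88.1 FPKM in CEBPb-A and 80.7, 68.6 and 73.8 FPKM in CEBPb. All its CEBPb-A libraries lay higher (log2 fold change 0.201, limma adjusted p = 0.588). The ubiquitin ligases Cbl and Cblb, which bring activated Syk and receptors to degradation, had lower means, for which 1 library mattered most. Cbl stood at 27.3, 24.8 and 6.81 FPKM in CEBPb-A and 30.98, 32.8 and 27.3 FPKM in CEBPb (log2 fold change −0.81, adjusted p = 0.59, and −0.21 without CEBPb-A replicate 3). Cblb was separated downward (−0.34, adjusted p = 0.588, and −0.18 without CEBPb-A replicate 3). Of 18 other inhibitory receptors 0 were separated in either direction, against 16.8% of all genes tested (median −0.019). Pirb stood at −0.035 (−0.079 to −0.0024 with a library left out) and Sirpa at −0.077 (−0.13 to −0.0405). Lilrb4a stood at −0.0202, Lair1 at −0.22 (−0.11 without CEBPb-A replicate 3) and Clec4a2 at 0.201 (0.13 without CEBPb replicate 3). The 5 subunits of the NADPH oxidase, which phagocytosed immune complexes switch on, were likewise not separated, with Cybb at −0.16 (−0.078 without CEBPb-A replicate 3), Cyba at 0.077 and Ncf1 at −0.013.

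**Figure D5:**
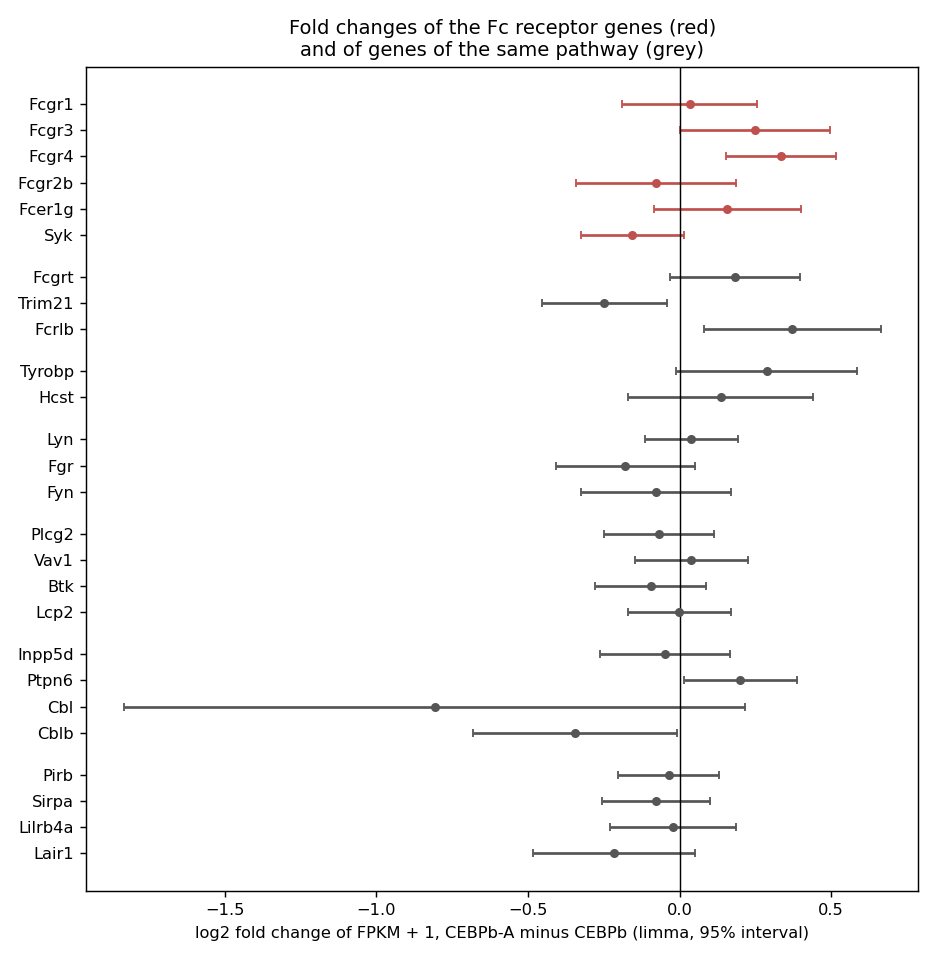
Log2 fold change of FPKM + 1, CEBPb-A minus CEBPb, with its 95% interval from limma for the 6 Fc receptor genes (red) and up to 4 genes from each of 6 pathway lists (grey), the first tested in list order: other Fc receptors, receptor-paired adaptors, Src family kinases, genes downstream of Syk, genes that limit the signal and other inhibitory receptors. None passed after adjustment over all genes, and of the genes drawn Cbl has the widest interval.

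Other cells that carry these receptors were looked for by their markers, since in bulk RNA a change in the share of a cell type and a change in RNA per cell cannot be told apart. Of 11 neutrophil markers 6 were listed, summing to 354 to 385 FPKM in CEBPb-A and 263 to 321 FPKM in CEBPb. Most of that sum was S100a8, at 303, 296 and 286 FPKM in CEBPb-A and 251, 249 and 199 FPKM in CEBPb, higher in every CEBPb-A library, as Fcgr4 was. S100a8 has a short transcript of 486 bases, and its log2 fold change of 0.35 was 0.27 with the length trend removed. Cxcr2 stood at 2.96 to 3.83 FPKM in CEBPb-A and 2.98 to 3.46 FPKM in CEBPb, and Camp at 1.699 to 2.35 FPKM in CEBPb-A and 1.41 to 2.18 FPKM in CEBPb. Mmp8 stood at 50.8 to 64.8 FPKM in CEBPb-A and 46.1 to 55.4 FPKM in CEBPb (log2 fold change 0.21), Ltf at 1.16 to 3.77 FPKM in CEBPb-A and 0.958 to 1.67 FPKM in CEBPb (0.38), and Csf3r at 8.66 to 10.9 FPKM in CEBPb-A and 9.85 to 11.6 FPKM in CEBPb (−0.076). These 5 overlapped, so 1 of the 6 was separated (16.7% against 16.8% of all genes tested), and no listed neutrophil marker was at 0. Ly6g and S100a9 were not analysed here. Of the B cell markers Cd22 alone was listed, at 41.2 to 59.3 FPKM in CEBPb-A and 47.4 to 51.1 FPKM in CEBPb. Cd2 was the only T cell marker listed, at 18.3 to 23.1 FPKM in CEBPb-A and 15.7 to 18.2 FPKM in CEBPb, higher in every CEBPb-A library by a narrow gap. Clec9a was the only dendritic cell marker listed, at 0.345 to 0.467 FPKM in CEBPb-A and 0.177 to 0.41 FPKM in CEBPb. None of the markers of natural killer cells, mast cells and basophils, or eosinophils was among the genes analysed. Of the monocyte markers 3 were listed. Ly6c2 stood at 0.239 to 0.501 FPKM in CEBPb-A and 0.364 to 0.654 FPKM in CEBPb, Cx3cr1 at 0.635 to 0.712 FPKM in CEBPb-A and 0.777 to 0.928 FPKM in CEBPb, and Fn1 at 5.96 to 11.4 FPKM in CEBPb-A and 10.3 to 11.7 FPKM in CEBPb (log2 fold change −0.28).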

How the data were processed

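RNA was sequenced from 6 libraries of mouse alveolar macrophages, 3 per group, made with a stranded KAPA kit from total RNA, per the labels' protocols. The authors deposited 1 table of FPKM per gene, per the file headers, and the submitters' processing notes name build GRCm38. Neither source names an aligner, a quantification program or an annotation release. The locus of 91.1% of listed genes was the same in GENCODE M21, from which transcript lengths and coding sequences were taken.

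Genes with a mean of at least 1 FPKM were tested on log2(FPKM + 1), which understates the change of low genes, with limma 3.58.1 in R 4.3.3 (intensity trend, no covariate, two-sided, Benjamini-Hochberg over all genes tested, threshold 0.05). The procedure was tested on simulated data. Figures were drawn with matplotlib 3.10.9. Same-numbered libraries of the 2 groups were checked for shared deviations. Named are the first 4 tested genes of each list and the one with the smallest p, all listed genes between the ends of the chromosome 1 cluster, and the 2 genes best correlated with each member, of which some are not reported here. The alveolar macrophage markers named were picked after their values were seen. The members and lists were chosen with earlier results of these data known.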

Additional observations from a re-analysis of the deposited data

How the results depend on the processing

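Over 18 alternatives, 12 of them other settings and 6 with a library left out, 0 of the 6 Fc receptor genes and 0 pathway genes passed. Fcgr4 (0.27 to 0.40), Fcgr3 (0.16 to 0.33) and Fcer1g (0.062 to 0.21) stayed positive in log2 fold change and Fcgr2b (−0.16 to −0.029) and Syk (−0.1998 to −0.029) negative, with limma adjusted p of 0.372 to 0.855 for Fcgr4. With a library left out Fcgr1 ran from −0.042 to 0.11 and Cebpb from −0.2008 to 0.051. The count over all genes was 0 with a mean of at least 5 FPKM, 2 after quantile normalization and 1 to 9 with a library left out, the 9 without CEBPb-A replicate 3. It was 1 with the replicate block, with or without the length trend removed. Same-numbered libraries correlated at 0.0993, 0.247 and 0.259 in their deviations from group means, 1 pair under 0.1, so the numbers were not taken to pair them, although every library correlated best with its own number.

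Some pathway genes near 0 turned sign, and the cause was not tested. After quantile normalization Clec4d stood at −0.033, Clec5a at −0.027, Lyn at −0.027, Vav1 at −0.014, Cdc42 at −0.034 and Cyba at −0.072. With the length trend removed, with and without the replicate block, Clec5a stood at −0.059, Plcg2 at 0.032, Lcp2 at 0.044, Was at 0.0051, Inpp5d at 0.038, Pirb at 0.047 and Ncf1 at 0.025. Upper-quartile scaling gave 0.0074 for Lcp2 and 0.0072 for Was, and median-of-ratios scaling gave 0.0199 for Lcp2, 0.0197 for Was, 2.3e-04 for Lilrb4a and 0.0078 for Ncf1. With a library left out the ranges were −0.059 to 0.091 for Clec5a, −0.042 to 0.030 for Lcp2, −0.36 to 0.51 for Rac1, −0.015 to 0.23 for Hcst, −0.014 to 0.085 for Vav1 and −0.045 to 0.040 for Was. They were −0.069 to 0.0505 for Lilrb4a, −0.016 to 0.16 for Cyba, −0.042 to 0.012 for Ncf1, −0.063 to 0.17 for Tomm40l, −7.0e-04 to 0.11 for Cdc42 and −0.12 to 7.3e-04 for Inpp5d. Only 3 libraries per group and an unknown depth limit what could be seen.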
